A study of Mus musculus with 8 samples.

Results

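The genes described here encode the subunits of the PPP family of serine/threonine phosphatases, read in mouse testis. They were chosen as the rows of the gene table whose symbol starts with Ppp1 to Ppp6, with Ppp1r9a, Ppp1r15a and Ppp1r15b left out, which gave 71 of 17121 rows. The rows of Ppp1cc and Ppp1ccb, a processed copy of Ppp1cc, held the same values in all 8 libraries, so 70 distinct genes remained. Of these, 37 belonged to PP1, 16 to PP2A, 5 to PP3 (calcineurin), 7 to PP4, 1 to PP5 and 4 to PP6. All 70 passed the filter on low values.

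RNA from testis was sequenced in 4 control libraries (CTL 1 to 4) and 4 libraries labelled N6amt1-SKO (SKO 1 to 4). N6amt1 encodes the catalytic subunit of a methyltransferase that modifies glutamine in a translation release factor and lysine in histone H4. The labels do not spell out SKO, name no driver line, and give no strain or age. They name the tissue as testis, although the extraction text mentions heart ventricles. Whether each library is a different mouse is not stated. The p-values therefore cover only library-to-library spread, part of which may be technical.

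PPP phosphatases remove phosphate from serine and threonine and are assembled from a small set of catalytic subunits and a large set of regulatory subunits that choose the substrate. PP1 pairs a catalytic subunit with one of many targeting or inhibitory proteins, PP2A adds a scaffold and an exchangeable B subunit, and calcineurin joins a calcium-calmodulin-activated A subunit to a calcium-binding B subunit. The testis makes forms of its own: a PP1 gamma splice form made from Ppp1cc in male germ cells, and a sperm calcineurin built from Ppp3cc and Ppp3r2, both of which sperm need for motility and fertility.

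N6amt1 itself did not read lower under the SKO label. Its values, scaled for library composition and always listed in the order of libraries 1 to 4, came to 475, 433, 629 and 514 across the controls and 586, 557, 561 and 625 across the SKO-labelled libraries, a log2 difference of 0.19 (SE 0.17, limma adjusted p = 0.437). A whole-gene value does not show whether part of a gene was deleted or in which cells, so it cannot check the labels. The libraries held 94.2 to 103.1 M (1 M is 1e6) scaled counts each, made from about 40.6 to 70.1 M reads in 6 libraries and at least 101.6 and 102.8 M in CTL 1 and CTL 2. The 18S ribosomal RNA took 0.17 to 0.27% of the values in 5 libraries and 0.73%, 0.72% and 0.97% in CTL 3, CTL 4 and SKO 4, so each result below is also given within these sets where that bears on it. Without SKO 3 no gene of the whole table passed the test at an adjusted p of 0.05, with 4784 genes at an unadjusted p under 0.05, and every call below rests on that library being present.

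Of the 70 phosphatase genes, 7 rose in the SKO-labelled libraries, 7 fell and 56 did not pass the test. The risen genes were Ppp1ca, Ppp1r18, Ppp1r1b, Ppp2ca, Ppp2r1a, Ppp2r2c and Ppp2r5b. The fallen genes were Ppp1r14bl, Ppp2r5c, Ppp3cc, Ppp3r2, Ppp4r1, Ppp4r3c-ps and Ppp4r4. The called share of 20% was close to that of all 17066 genes tested, of which 19.9% were called, 11.9% risen and 7.93% fallen, so the number of calls is no result about the phosphatase genes. The same holds for groups that did not overlap: 8 genes lay wholly above and 11 wholly below the control libraries, or 27.1%, beside 26.1% of all genes. The median log2 difference was -0.12 over the phosphatase genes and 0.04 over all genes. By class, PP1 had 3 risen and 1 fallen gene, PP2A 4 and 1, calcineurin 0 and 2, and PP4 0 and 3, while no PP5 or PP6 gene passed.

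The falls depended on the scaling. Scaled by composition (TMM) the split was 7 risen to 7 fallen, by median ratios 4 to 8, by upper quartiles 8 to 7, and by library totals 16 to 0. Under library totals the median gene of the table moved from 0.04 to 0.33. All 14 called genes kept their sign in all 21 alternative fits. Fewer cells of a type and less RNA per cell cannot be told apart in bulk RNA from tissue, and this touches every gene below.

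**Figure D1:**
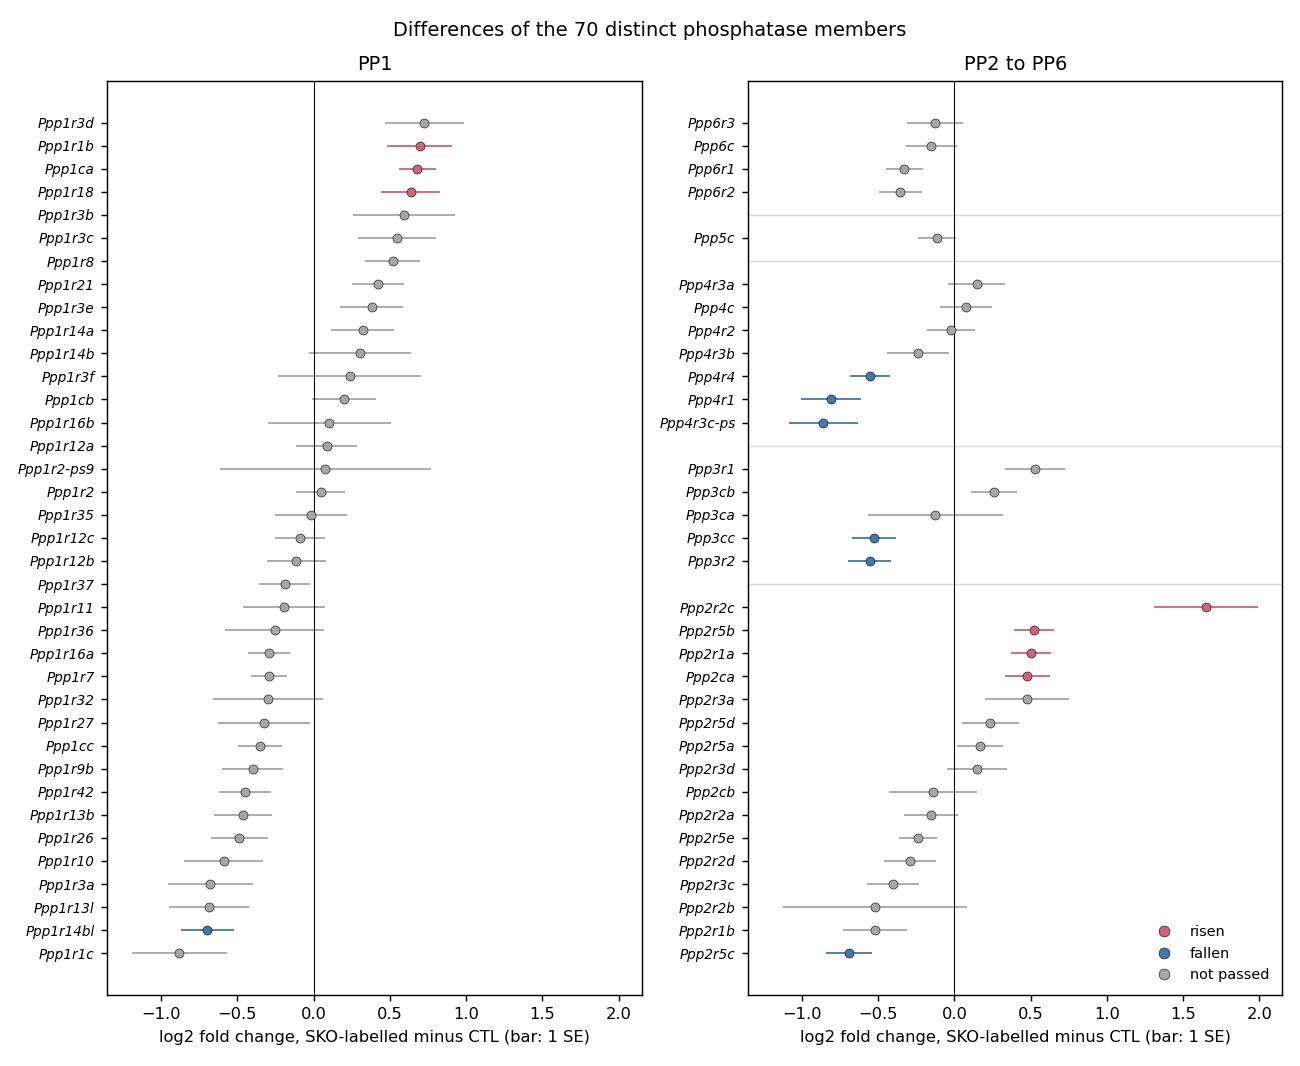
Log2 difference between SKO-labelled and CTL libraries (x axis, with standard error bars) for each phosphatase gene, grouped by class PP1 to PP6. The 7 risen and 7 fallen genes are coloured, and the difference of largest size is that of Ppp2r2c at 1.65.

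Cell type markers moved between the groups, and their part in the results on phosphatase genes was not tested. Of 15 Sertoli cell markers 12 rose, and their summed value was 85442 to 174302 in the control and 183785 to 345272 in the SKO-labelled libraries. Of the 5 measured markers of peritubular myoid cells 3 rose, with sums of 20292 to 24136 and 35336 to 41151. Of 10 pachytene spermatocyte markers 5 fell, with sums of 619704 to 815258 and 483413 to 549579. These 3 lists did not overlap between the groups. Of 9 spermatogonial markers 3 rose, of 9 Leydig cell markers 2, of 7 macrophage markers 1 and of 6 endothelial markers 1, with overlapping sums in each list. None of 10 round or 10 elongating spermatid markers passed, but their sums differed widely within groups. The elongating spermatid sum was 559765, 682832, 241750 and 86047 across the controls and 579272, 174049, 171080 and 158773 across the SKO-labelled libraries. The 5 heart muscle markers in the table summed to 812 to 1306 and 1550 to 2632, 1 of them risen and the sums without overlap, and the defining genes Nppa, Actc1 and Myl2 were not analysed here.

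Of the 11 catalytic subunit genes, Ppp1ca and Ppp2ca rose, Ppp3cc fell and 8 did not pass. Ppp1ca, the alpha catalytic subunit of PP1, lies on chromosome 19 at 4192065 to 4195420 (GRCm38, plus strand). Its scaled values were 3711, 3344, 3470 and 3885 across the controls and 5632, 6152, 6085 and 5203 across the SKO-labelled libraries. The lowest SKO-labelled library stood above the highest control. It averaged 3602 ± 242 (SD, n = 4) in the controls against 5768 ± 442 (SD, n = 4), a log2 difference of 0.68 (SE 0.12, limma adjusted p = 0.0131). It passed in 7 of 8 fits that each left out 1 library. On the log2 scale it differed by 0.75 among the 5 libraries with less 18S and 0.52 among the 3 with more. Reads of the opposite-strand neighbours Rad9a and AC109138.6, which together cover 16.5% of the exon length of Ppp1ca, cannot be told apart, since the library kit does not keep strand.

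Ppp1cc, the gamma subunit and the source of the sperm form, did not pass the test. Its values were 66229, 73748, 59256 and 55067 across the controls and 55847, 46521, 51106 and 44981 across the SKO-labelled libraries. SKO 1 lay just above CTL 4, and the other SKO-labelled libraries lay below all controls. The log2 difference was -0.35 (SE 0.14, limma adjusted p = 0.107), and -0.46 (limma adjusted p = 0.0313) among the libraries with less 18S. The row also stands for Ppp1ccb on chromosome 7, since both rows hold the same values, so the gene and the copy are not separable here. The exons of Ppp1ccb share 97.6% of their 50-base words with other genes, and those of Ppp1cc share 40%. Why the rows are identical was not tested. Ppp1cb, the beta subunit that works in myosin phosphatase, ranged from 7764 to 11679 in the controls and from 8869 to 15218 in the SKO-labelled libraries, a log2 difference of 0.20 (limma adjusted p = 0.523) that was -0.09 in the libraries with more 18S.

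The balance between PP1 catalytic genes needs no scaling between libraries, since all are read in the same library. It was looked at after the values were seen and is given without a test. Per kilobase of exon, Ppp1cc made up 88.6, 90.2, 89.2 and 86.0% of the PP1 catalytic sum across the controls and 83.7, 78.0, 80.1 and 82.0% across the SKO-labelled libraries. Ppp1ca made up 6.75, 5.56, 7.10 and 8.25% across the controls and 11.5, 14, 13 and 12.9% across the SKO-labelled libraries. Neither share overlapped between the groups. The share of Ppp1cb was 3.67 to 5.72% and 4.77 to 8.0% and overlapped. Ppp1cc remained the main PP1 catalytic gene per kilobase in all 8 libraries.

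**Figure D2:**
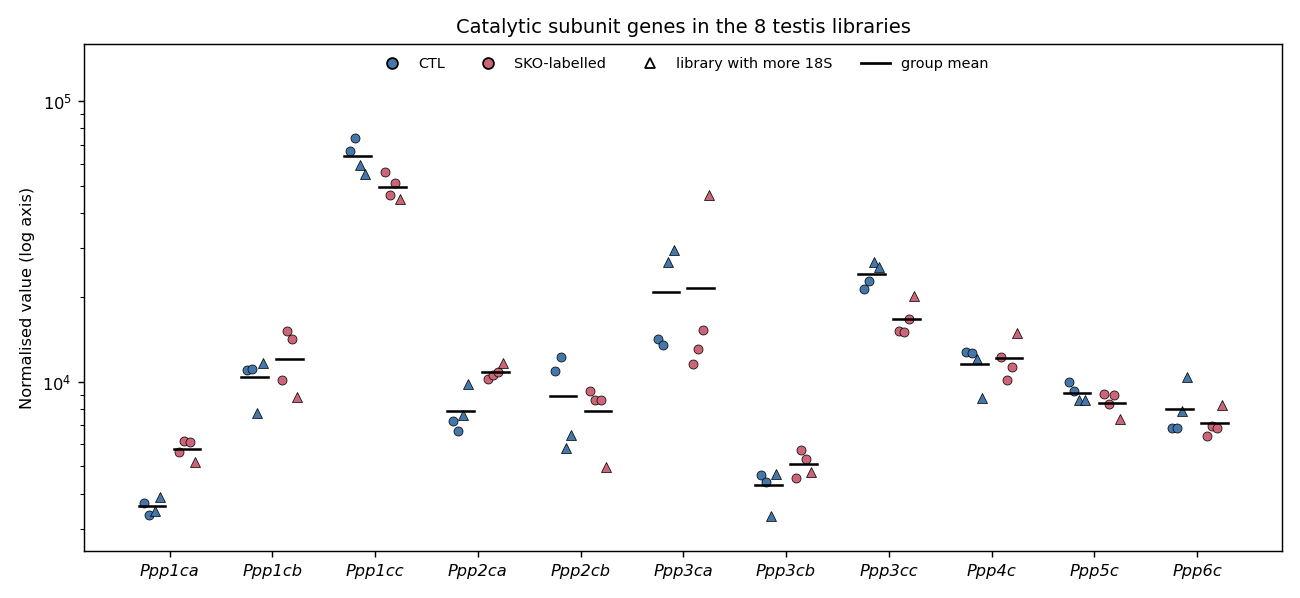
Scaled value (y axis, log scale) of the catalytic subunit genes in each of the 8 libraries, CTL in blue and SKO-labelled in red, with triangles for libraries with more 18S and a black bar for the group mean. Ppp1ca and Ppp2ca lie higher and Ppp3cc lower in all 4 SKO-labelled libraries, and Ppp3ca in SKO 4 stands apart at 46203.

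Among the PP1 regulatory genes 2 rose and 1 fell. Ppp1r14bl, a gene similar to the PP1 inhibitor gene Ppp1r14b, lies on chromosome 1 at 23100473 to 23102253 (minus strand). It read 36679, 41687, 29328 and 27942 across the controls and 24641, 20561, 20861 and 17065 across the SKO-labelled libraries. Every SKO-labelled library was below every control. On the log2 scale it differed by -0.70 (SE 0.17, limma adjusted p = 0.0249), and the call was lost without SKO 2 or SKO 3. Ppp1r14b itself, of the CPI-17 family, did not pass: it ranged from 1946 to 6046 and from 4016 to 6394, a log2 difference of 0.30 (limma adjusted p = 0.55). It shares 21.7% of its 50-base words with other genes. Per kilobase, Ppp1r14bl stood 5.20 to 12.3 times as high as Ppp1r14b in the controls and 3.30 to 4.39 times as high in the SKO-labelled libraries.

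Ppp1r18 (phostensin), which targets PP1 to actin filaments, read 2281, 2091, 1623 and 1265 across the controls and 3164, 2602, 2697 and 2579 across the SKO-labelled libraries. The groups did not overlap, and the log2 difference was 0.64 (SE 0.20, limma adjusted p = 0.0474). Ppp1r1b (DARPP-32), a PP1 inhibitor when phosphorylated by protein kinase A, read 238, 208, 202 and 147 across the controls and 336, 323, 272 and 354 across the SKO-labelled libraries, a log2 difference of 0.69 (SE 0.21, limma adjusted p = 0.0482). Both calls were fragile to the choice of libraries: Ppp1r18 passed in 1 of 8 fits leaving out a library, the one without CTL 1, and Ppp1r1b in 0. Ppp1r1b had only 72 reads in its thinnest library, and 15.7% of its exon length overlaps the opposite-strand gene 1700003D09Rik.

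Some PP1 inhibitors and binding proteins, with copies, were chosen by name, and none passed in the fit on all 8 libraries. Whether they are particular to the testis was not looked at. Ppp1r11 (inhibitor 3) read 19427, 20586, 11990 and 9767 across the controls and 17454, 9954, 13464 and 11709 across the SKO-labelled libraries. Ppp1r36, a PP1-binding protein, read 12236, 12575, 5899 and 5072 across the controls and 9972, 6249, 6315 and 5746 across the SKO-labelled libraries. Ppp1r2-ps9, a copy of the inhibitor 2 gene, read 1820, 2110, 435 and 236 across the controls and 1711, 882, 707 and 462 across the SKO-labelled libraries. CTL 1, CTL 2 and SKO 1 were the 3 highest libraries for each of these genes, as they were for the summed elongating spermatid markers. Ppp1r32 was likewise high in CTL 1, CTL 2 and SKO 1, at 17376, 22193 and 15013, and 6490 to 11073 in the other libraries. The log2 differences of Ppp1r11, Ppp1r32, Ppp1r36 and Ppp1r2-ps9 were -0.19, -0.30, -0.26 and 0.08, and each changed sign in at least 1 alternative fit. Among the libraries with less 18S, Ppp1r32 and Ppp1r36 passed as fallen, at -0.79 and -0.76 (limma adjusted p = 0.0417 and 0.0396). Ppp1r11 and Ppp1r2-ps9 did not pass there. In the libraries with more 18S, Ppp1r32 and Ppp1r36 differed by -0.05 and 0.09. Ppp1r42 differed by -0.45 (limma adjusted p = 0.087), with SKO 4 at 6000 inside the control range of 5577 to 8144. It passed among the libraries with less 18S, at -0.74 (limma adjusted p = 0.0177), and differed by 0.07 in those with more. Ppp1r2 (inhibitor 2) differed by 0.05, from 9255 to 13956 and from 10242 to 12793.

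The remaining PP1 regulators were given by group. None of the 6 glycogen-targeting genes Ppp1r3a to Ppp1r3f passed, although 5 of them were above 0, with a median log2 difference of 0.46. Ppp1r3d was the only one whose groups did not overlap, at 91 to 119 and 130 to 240 (log2 difference 0.72, limma adjusted p = 0.0748). These are thinly read genes, with mean control values of 83.4 to 564 and as few as 19 reads for Ppp1r3f. None of the 5 myosin phosphatase targeting genes of the Ppp1r12 and Ppp1r16 groups passed, with log2 differences from -0.29 to 0.10. Ppp1r7 (SDS22) and Ppp1r26 lay below the controls without overlap but did not pass, with log2 differences of -0.29 (limma adjusted p = 0.101) and -0.49 (limma adjusted p = 0.0874). Ppp1r1c, an inhibitor related to Ppp1r1b, had the most negative difference of all 70 genes at -0.88 and did not pass (SE 0.31, limma adjusted p = 0.071), with SKO 4 at 2792 inside the control range of 2182 to 4289. It passed with the 18S set as a factor (limma adjusted p = 0.0227) and within the libraries with less 18S (limma adjusted p = 0.0206).

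PP2A showed its changes in the catalytic alpha subunit, the scaffold and single B subunits. Ppp2ca, on chromosome 11 at 52098681 to 52127778 (plus strand), read 7258, 6686, 7632 and 9824 across the controls and 10212, 10592, 10845 and 11726 across the SKO-labelled libraries. The groups did not overlap, averaging 7850 ± 1372 (SD, n = 4) in the controls against 10844 ± 643 (SD, n = 4), a log2 difference of 0.48 (SE 0.14, limma adjusted p = 0.0448). Among fits leaving out 1 library it passed only without CTL 4, the highest control. Reads of the opposite-strand genes 9430098F02Rik, Gm24157 and Mir3061, which together overlap 41.3% of its exon length, cannot be told apart. Ppp2cb, the beta catalytic subunit, ranged from 5810 to 12314 and from 4993 to 9259. It did not pass over all 8 libraries, with a log2 difference of -0.14 (limma adjusted p = 0.763). Among the libraries with less 18S it passed as fallen, at -0.39 (limma adjusted p = 0.0364). With the 18S set as a factor it passed too (limma adjusted p = 0.0285). The share of Ppp2ca in the PP2A catalytic sum per kilobase overlapped between the groups, at 9.62 to 22.9% and 17.8 to 31.5%. Its size rests on the exon lengths of 7490 bases for Ppp2ca and 1469 for Ppp2cb. Before division by length, Ppp2ca was the higher in CTL 3, CTL 4 and every SKO-labelled library, and Ppp2cb in CTL 1 and CTL 2.

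The scaffold genes Ppp2r1a and Ppp2r1b, which hold the catalytic and B subunits together, differed in sign. Ppp2r1a (chromosome 17, 20945311 to 20965916, plus strand) read 6579, 5977, 6724 and 6726 across the controls and 9137, 10420, 9584 and 7847 across the SKO-labelled libraries. All SKO-labelled libraries stood above all controls, averaging 6502 ± 356 (SD, n = 4) in the controls against 9247 ± 1074 (SD, n = 4). The log2 difference was 0.50 (SE 0.13, limma adjusted p = 0.0273), and the call held in 2 of 8 fits leaving out a library, those without CTL 4 and without SKO 4. Ppp2r1b read 17822, 20605, 14176 and 13237 across the controls and 13977, 12811, 11254 and 8059 across the SKO-labelled libraries. It did not pass over all 8 libraries (log2 difference -0.52, limma adjusted p = 0.101). Among the libraries with less 18S Ppp2r1b passed as fallen, at -0.60 (limma adjusted p = 0.0227). It also passed with the 18S set as a factor (limma adjusted p = 0.00592). Of its exon length 22.2% overlaps Sik2. Within each library, per kilobase, Ppp2r1a made up 41.1, 35.4, 47.3 and 49.0% of the scaffold sum across the controls and 55.3, 60.6, 61.7 and 64.8% across the SKO-labelled libraries. Per kilobase Ppp2r1b was thus the higher of the pair in every control library and Ppp2r1a in every SKO-labelled library. That order needs no scaling between libraries but rests on the exon lengths of 6449 bases for Ppp2r1b and 3411 for Ppp2r1a: before division by length, Ppp2r1b was the higher in all 8 libraries.

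**Figure D3:**
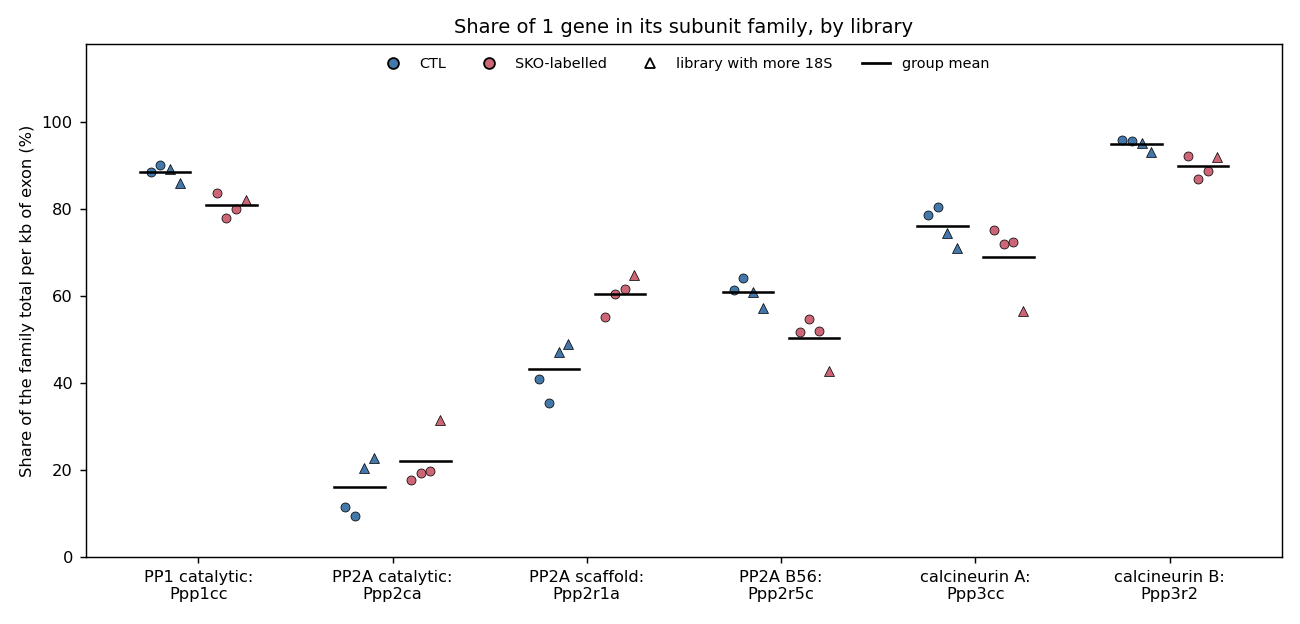
Share of the per-kilobase sum of each subunit group (y axis, percent) taken by single genes in each library, CTL in blue and SKO-labelled in red, triangles marking libraries with more 18S. The share of Ppp2r1a is 35.4 to 49.0% in the controls and 55.3 to 64.8% in the SKO-labelled libraries.

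Of 4 B55 genes only Ppp2r2c passed. Ppp2r2c, the B55 gamma subunit best known from brain, lies on chromosome 5 at 36868513 to 36955078 (plus strand). It read 854, 461, 422 and 881 across the controls and 1648, 2242, 3178 and 1240 across the SKO-labelled libraries. It averaged 654 ± 247 (SD, n = 4) in the controls against 2077 ± 842 (SD, n = 4), with a log2 difference of 1.65 (SE 0.34, limma adjusted p = 0.0159). The groups did not overlap, and the call held in 7 of 8 fits leaving out a library. This was the largest log2 difference in size among the 70 genes, 1.85 among the libraries with less 18S and 1.03 among those with more. Its share of the B55 sum per kilobase was 1.78 to 4.20% and 6.53 to 16.3%. Ppp2r2a, Ppp2r2b and Ppp2r2d did not pass, with log2 differences of -0.15, -0.52 and -0.29.

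Of the 5 B56 genes, whose products work with shugoshin at centromeres in meiosis, 1 rose, 1 fell and 3 did not pass. Ppp2r5c (chromosome 12, 110447120 to 110583062, plus strand) read 62713, 69319, 59576 and 61798 across the controls and 40829, 46118, 40868 and 30761 across the SKO-labelled libraries. No library overlapped, averaging 63352 ± 4190 (SD, n = 4) in the controls against 39644 ± 6422 (SD, n = 4). On the log2 scale it differed by -0.69 (SE 0.15, limma adjusted p = 0.0186), and it was lost only without SKO 3. Ppp2r5b (chromosome 19, 6227765 to 6235872, minus strand) read 991, 895, 1036 and 1014 across the controls and 1355, 1516, 1377 and 1411 across the SKO-labelled libraries. It stood higher in every SKO-labelled library, by 0.52 on the log2 scale (SE 0.13, limma adjusted p = 0.024), and passed in 2 of 8 fits leaving out a library, those without CTL 4 and without SKO 4. Ppp2r5c was 23.4 to 31.5 times as high as Ppp2r5b per kilobase in the controls and 8.87 to 12.4 times as high in the SKO-labelled libraries. Ppp2r5a, Ppp2r5d and Ppp2r5e, and the 3 B72 genes Ppp2r3a, Ppp2r3c and Ppp2r3d, did not pass.

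**Figure D4:**
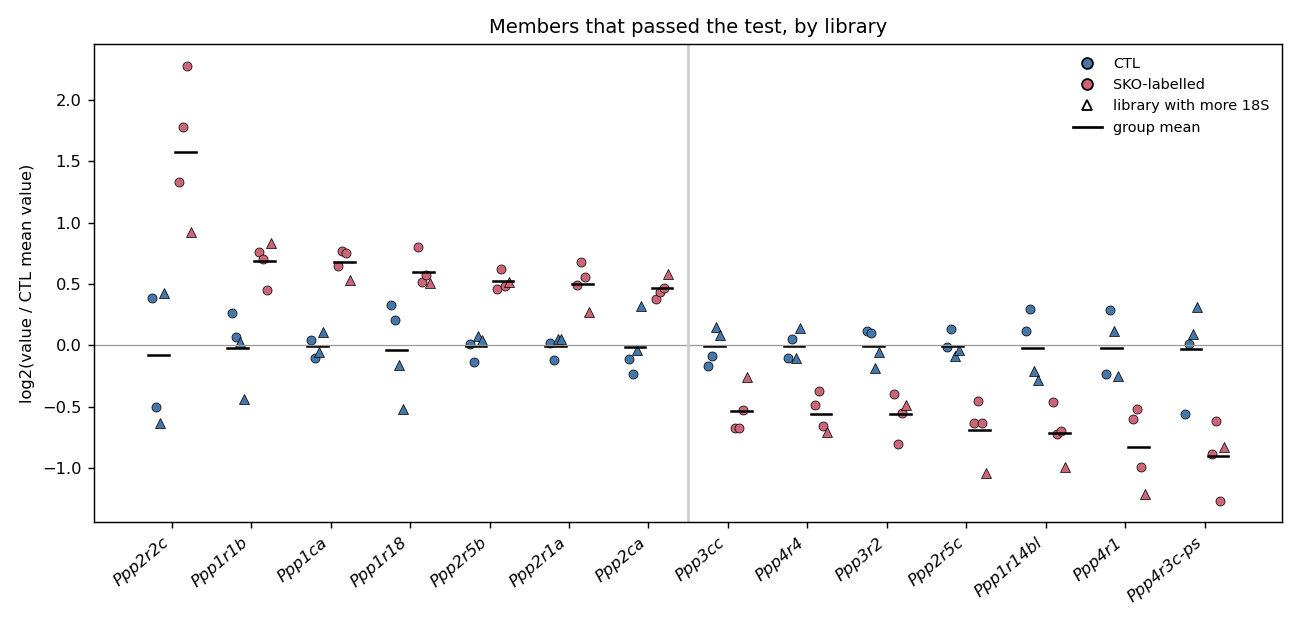
Log2 ratio of the scaled value to the mean of the controls (y axis) for the 14 called phosphatase genes in each library, risen to the left and fallen to the right, CTL in blue and SKO-labelled in red, with triangles for libraries with more 18S and a black bar for the group mean. The groups do not overlap for any of the 14 genes.

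Calcineurin is where the testis forms and the widely expressed forms could be set side by side. The promoters of the B subunit pair are shown because the testis gene fell and the widely expressed one did not, and that of Ppp2r2c because its difference was the largest. The stretches run 5′ to 3′ on the gene's strand up to an annotated start (RefSeq, GRCm38.p6, with bases inside the GENCODE gene left off). For Ppp2r2c this start is an internal one. RefSeq begins that gene at 36866846, so the stretch lies inside the RefSeq gene and before the GENCODE start of 36868513. Capitals mark motifs on either strand. In the Ppp2r2c stretch they mark a GC box, spelled GGGCGG, and in all 3 stretches the core of sites bound by the MYB family, spelled AACNG with N any base. The full window of Ppp3r1 holds 4 GC boxes, all in the 35 bases left off. The full window of Ppp3r2 holds 5 MYB family cores, more than are marked in its printed stretch. The printed stretches are chr4:49682025-49682233 (minus strand), chr11:17159048-17159262 (plus strand) and chr5:36868260-36868509 (plus strand).
Ppp3r2: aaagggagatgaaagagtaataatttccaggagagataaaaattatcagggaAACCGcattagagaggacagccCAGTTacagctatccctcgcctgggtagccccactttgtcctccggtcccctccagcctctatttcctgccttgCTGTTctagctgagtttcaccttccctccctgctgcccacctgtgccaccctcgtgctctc
Ppp3r1: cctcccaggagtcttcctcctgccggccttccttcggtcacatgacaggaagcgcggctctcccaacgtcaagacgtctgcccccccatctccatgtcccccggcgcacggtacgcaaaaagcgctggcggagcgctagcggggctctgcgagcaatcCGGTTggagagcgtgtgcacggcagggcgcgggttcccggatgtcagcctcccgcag
Ppp2r2c: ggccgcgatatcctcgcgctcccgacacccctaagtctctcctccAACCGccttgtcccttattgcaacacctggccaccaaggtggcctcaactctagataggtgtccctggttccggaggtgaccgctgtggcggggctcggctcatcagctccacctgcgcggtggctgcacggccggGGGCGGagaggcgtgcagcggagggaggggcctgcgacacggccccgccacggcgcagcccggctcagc

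The Ppp3r2 stretch held 52.6% G and C and the Ppp3r1 and Ppp2r2c stretches 67.4% and 69.6%. Their full windows of 250 bases held 55.6%, 70.8% and 69.6%, while the median of all such promoter windows was 52.4%. In full windows of 250 bases, found for 55 of the 71 rows as 67 windows, the GC box was present in 62.7% against 32.7% of all windows. The 67 windows held 34.0 to 81.2% G and C, and this content was not matched in the comparison. Some genes, such as Ppp1r8 and Ppp2r5d, were counted in overlapping windows. Whether the GC box share is particular to the phosphatase genes was not tested. The CCAAT box, absent from the printed stretches, was present in 28.4% against 33.9% and the MYB family core in 71.6% against 74.2%. A TATA box, spelled TATAAA, was present in 10.4% against 12.4%. The full cAMP response element, the palindrome TGACGTCA, was in 4 windows or 5.97%, against 1.55%. These were windows of Ppp1r12c and Ppp2ca and overlapping windows of Ppp2r2d, which may hold the same site. The share therefore may count 1 site more than once. A match is a run of letters and not a measured site.

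The testis form of the A subunit, Ppp3cc (chromosome 14, 70217865 to 70289471, minus strand), fell. It read 21490, 22804, 26723 and 25613 across the controls and 15174, 15121, 16714 and 20215 across the SKO-labelled libraries. It averaged 24157 ± 2426 (SD, n = 4) in the controls against 16806 ± 2390 (SD, n = 4), and SKO 4 came closest to the controls without reaching them. The log2 difference was -0.53 (SE 0.14, limma adjusted p = 0.0326), and the call was lost without CTL 3, SKO 1, SKO 2 or SKO 3. It was -0.50 among the libraries with less 18S and -0.35 among those with more.

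Its partner Ppp3r2, the testis calcineurin B gene on chromosome 4 at 49678747 to 49682024 (minus strand), also fell. It read 55030, 54385, 44701 and 49029 across the controls and 38535, 29069, 34620 and 36204 across the SKO-labelled libraries. The groups did not overlap, averaging 50786 ± 4868 (SD, n = 4) in the controls against 34607 ± 4027 (SD, n = 4). On the log2 scale it differed by -0.56 (SE 0.14, limma adjusted p = 0.0263), lost without CTL 2, SKO 1, SKO 2 or SKO 3. Both testis genes kept a negative difference under library totals, at -0.24 and -0.26, but did not pass there. The summed pachytene spermatocyte markers were also lower in every SKO-labelled library. None of the 10 round or 10 elongating spermatid markers passed, and the sums of both lists overlapped between the groups. The part of cell types in these falls was not tested.

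The widely expressed calcineurin genes did not pass over all 8 libraries. Ppp3r1 read 2477, 2574, 2367 and 3836 across the controls and 3408, 4643, 4698 and 3390 across the SKO-labelled libraries. Its log2 difference was 0.53 (SE 0.20, limma adjusted p = 0.0815), with CTL 4 inside the SKO-labelled range. Among the libraries with less 18S Ppp3r1 passed as risen, at 0.73 (limma adjusted p = 0.0222), and it differed by 0.19 in those with more. Ppp3cb differed by 0.26 (limma adjusted p = 0.246), from 3341 to 4707 and from 4530 to 5717. Ppp3ca read 14188, 13504, 26766 and 29436 across the controls and 11582, 13109, 15260 and 46203 across the SKO-labelled libraries. Its 3 highest libraries were those with more 18S, CTL 3, CTL 4 and SKO 4, and its difference between the groups was -0.12 (SE 0.44). Per kilobase, Ppp3r2 stood 23.7, 22.5, 20.1 and 13.6 times as high as Ppp3r1 across the controls and 12.1, 6.68, 7.86 and 11.4 times as high across the SKO-labelled libraries, with no overlap. The ratio of Ppp3cc to Ppp3cb did not overlap either, at 13.7 to 23.6 and 7.81 to 12.4, while that of Ppp3cc to Ppp3ca did, at 2.91 to 5.65 and 1.46 to 4.38. These ratios were chosen after the values were seen and carry no test.

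In PP4, a phosphatase that acts in DNA repair and centrosome maturation, 3 of 7 genes fell and none rose. The fallen ones include the pseudogene Ppp4r3c-ps. Of all genes tested 7.93% fell, and 7 genes are too few to set against that share. Ppp4r1 (chromosome 17, 65782573 to 65841926, plus strand) read 23425, 33513, 29797 and 23147 across the controls and 18139, 19217, 13829 and 11877 across the SKO-labelled libraries. All SKO-labelled libraries were below all controls, with a log2 difference of -0.81 (SE 0.20, limma adjusted p = 0.0232) that was lost without CTL 3 or SKO 3. Ppp4r4 (chromosome 12, 103532283 to 103613831, plus strand) read 8974, 10004, 8969 and 10660 across the controls and 6878, 7450, 6124 and 5912 across the SKO-labelled libraries, a log2 difference of -0.55 (SE 0.13, limma adjusted p = 0.0218) lost without SKO 1 or SKO 3. Ppp4r3c-ps, a pseudogene copy on chromosome X at 88729828 to 88732272 of the Ppp4r3 regulatory genes, read 574, 850, 901 and 1051 across the controls and 456, 549, 351 and 476 across the SKO-labelled libraries. It too did not overlap between the groups, with a log2 difference of -0.86 (SE 0.22, limma adjusted p = 0.029) lost without CTL 2, CTL 3, SKO 1 or SKO 3. The catalytic gene Ppp4c stayed within the spread of the libraries, from 8742 to 12754 and from 10174 to 14955 (log2 difference 0.08, limma adjusted p = 0.79). Ppp4r2, Ppp4r3a and Ppp4r3b differed by -0.02, 0.15 and -0.24 and did not pass.

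Ppp5c, the PP5 gene, whose product works with the chaperone HSP90, ranged from 8607 to 10010 in the controls and from 7376 to 9050 in the SKO-labelled libraries, a log2 difference of -0.12 (limma adjusted p = 0.535). In PP6, which acts on Aurora A in mitosis and meiosis, all 4 genes were below 0 and none passed. Ppp6r1, a subunit that directs PP6 to its substrates, read 20832, 22985, 23713 and 19249 across the controls and 17683, 18025, 17192 and 16095 across the SKO-labelled libraries. Its groups did not overlap, but the difference of -0.33 (SE 0.12) did not pass (limma adjusted p = 0.0834). Ppp6r2 was also without overlap, at 7800 to 11034 and 6730 to 7508, with a log2 difference of -0.35 (limma adjusted p = 0.106). The catalytic gene Ppp6c differed by -0.15 (limma adjusted p = 0.547).

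The split of libraries by 18S was compared with the group difference for each gene. Of the 70 phosphatase genes, 48 (68.6%) had the same sign in both sets, beside 65.6% of 16393 genes compared over the whole table. The set with more 18S holds a single SKO-labelled library, assumed to vary like the controls, and no phosphatase gene passed there, beside 1.80% of all genes tested. Within the set with less, 29 of the 70 passed (41.4%), beside 32.2% of all genes tested. Genes that passed within that set but not over all 8 libraries included Ppp1r3c, Ppp1r3e, Ppp1r16a, Ppp2r2d, Ppp2r3a, Ppp2r5d and Ppp3r1. Of the 14 called genes, Ppp1r18, Ppp1r1b and Ppp4r3c-ps did not pass within the set with less 18S, at limma adjusted p of 0.0876, 0.129 and 0.0927. All 14 had the same sign in both sets.

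**Figure D5:**
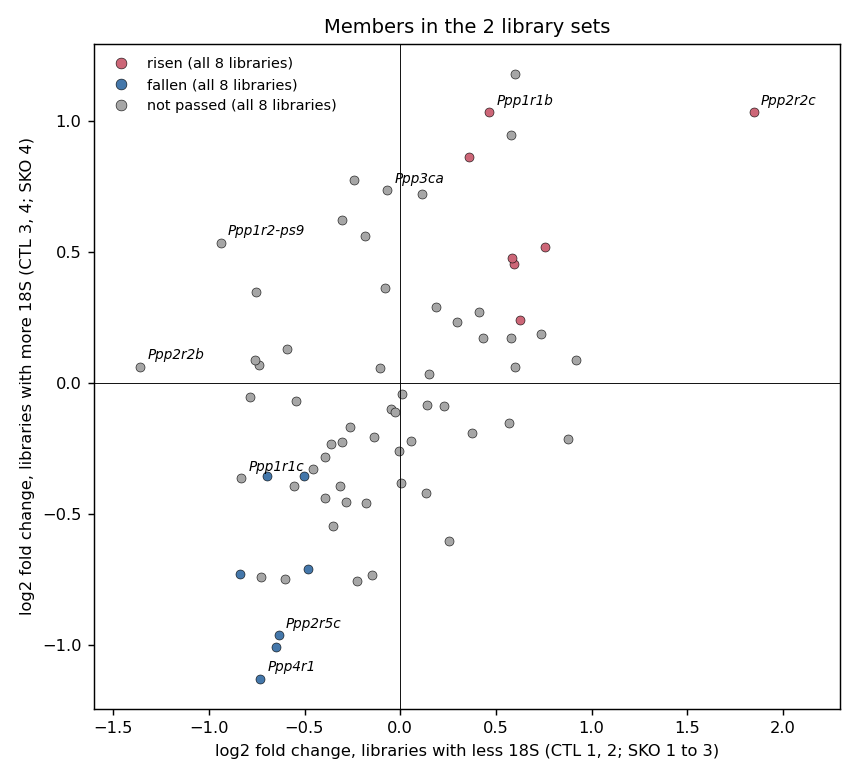
Log2 difference between SKO-labelled and CTL libraries within the 5 libraries with less 18S (x axis) and within the 3 with more 18S (y axis), 1 point per phosphatase gene, with called genes coloured. The signs are the same for 48 of 70 genes and for all 14 called genes.

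Genes that work with these phosphatases but carry no Ppp1 to Ppp6 symbol were taken from lists. Of 27 PP1 partners 2 rose and 4 fell. Rrp1b, a nucleolar PP1 targeting protein, rose by 0.48 on the log2 scale (SE 0.11, limma adjusted p = 0.0221), and Mras, a GTPase of the SHOC2-PP1 complex, by 0.47 (SE 0.15, limma adjusted p = 0.0482). Phactr3 fell by 0.75, Cdca2 (Repo-Man), which brings PP1 to chromatin at mitotic exit, fell by 0.70, and Csrnp1 fell by 0.61 on the log2 scale. The list's median was -0.19. Of 38 PP2A partners 7 rose and 2 fell, with a median of 0.04. The largest rises were those of Ier2 at 1.17 (SE 0.28), Igbp1 at 0.88 (SE 0.17) and Strip2 at 0.81 (SE 0.15). Igbp1 encodes alpha4, which holds free PP2A, PP4 and PP6 catalytic subunits, and it read 450 to 665 in the controls and 998 to 1123 in the SKO-labelled libraries. The falls were in Cttnbp2nl at -0.60 and Strn4, a STRIPAK B subunit, at -0.46.

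Of 29 calcineurin partners 5 rose and none fell, with a median of 0.17. Nfatc2, a transcription factor that calcineurin activates, read 570, 508, 667 and 618 across the controls and 975, 1323, 1696 and 1007 across the SKO-labelled libraries, a log2 difference of 1.05 (SE 0.20, limma adjusted p = 0.0147). Chp2, a calcineurin B-like protein, differed by 0.89 (SE 0.18) and Crtc3, a CREB coactivator and calcineurin substrate, by 0.70 (SE 0.15). All 3 were without overlap between the groups. Of 10 partners of PP4, PP5 and PP6, Igbp1 rose and Aurka, the Aurora A kinase gene, fell by 0.75 on the log2 scale (SE 0.21, limma adjusted p = 0.0371), with overlapping groups. A last list held 20 genes, mainly metal-dependent PPM phosphatases, a separate superfamily, and their relatives. Of these 3 rose and 1 fell: Ppm1m at 0.73, Ilkap at 0.68, the PPM-like gene Tab1 at 0.61 and Phlpp1 at -0.98. The list also held Ppef1, of the PPP family, which did not pass. The called shares of these lists, 17.2 to 23.7%, were close to the share among all genes.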

How the data were processed

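Testis RNA was read in 8 libraries, 4 per group by their titles. The submitters' processing notes name featureCounts 1.5.0-p3, HISAT2 2.0.5, fastp and CASAVA, with no roles, and the build mm10. The deposited values are a score: whole numbers that the authors made from read counts by 1 factor per library and rounded, by a method not given in the sources used here. In 6 libraries low values fell on regular steps, which gave the number of reads: at least 99.8% of low values exactly equalled a whole read number times the library's factor, rounded, where 43.0 to 68.0% of all whole numbers would. Rows with low values had been left out, the lowest row maximum being 95.

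Because the values are not raw counts, limma 3.58.1 (R 4.3.3) was used, with a variance trend, on log2(value + 5) of TMM-scaled values (trims of 30% and 5%), for genes of at least 25 in at least 4 libraries. Tests were two-sided with Benjamini-Hochberg adjustment over 17066 genes at 0.05. A log2 difference is on the log2(value + 5) scale and understates changes of low genes. Scripts were tested on simulated data. Gene positions, exon lengths and overlaps are from GENCODE M21 on GRCm38, matched for 71 of 71 rows, and promoters from RefSeq (GRCm38.p6). Named genes are every catalytic, scaffold and calcineurin B gene, every called gene and the most abundant regulatory gene of each class. The PP1 inhibitor and binding protein genes Ppp1r2, Ppp1r2-ps9, Ppp1r11, Ppp1r32, Ppp1r36 and Ppp1r42 are also named. So are up to 3 risen and 3 fallen genes of each partner list. Others given by name were chosen after their values were seen. The members and lists were chosen with earlier results of these data known. The alternatives were other scalings, pseudocounts (1 and 20), filters (none, or 100), no trend, the replicate block, the 18S sets, and leaving out libraries.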

Additional observations from a re-analysis of the deposited data

Results flagged for a closer look

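In 62 groups of 4 libraries (31 named phosphatase genes in each group), 6 held a library whose gap to its nearest neighbour was above Dixon's 95% critical share of the group's range. Chance gives about 1 in 20 such groups. Ppp1cb was low in CTL 3 at 7764, and Ppp3r1 was high in CTL 4 at 3836. Ppp1r36 was high in SKO 1 at 9972. In SKO 4, Ppp1r2 was low at 10242, Ppp2cb was low at 4993 and Ppp3ca was high at 46203. SKO 4 is also the library with the highest 18S share (0.97%) and the fewest reads (40.6 M), and the part of these in its values was not tested.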

How the results depend on the processing

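No named phosphatase gene passed in the opposite direction in any of the 21 alternatives. Over these genes and alternatives, 543 results kept their side of the threshold, 90 lost the call and 18 gained it. Risen phosphatase genes (7) numbered 16 under library totals, 4 under median-ratio factors, 12 within the libraries with less 18S, 0 within those with more, and 4 without the 2 most deeply sequenced libraries. Fallen ones (7) numbered 0 under library totals, 13 with the 18S set as a factor, 17 with less 18S, 0 with more, and 12 without the deepest 2. Over all genes, 2038 risen became 4885 under library totals, 3194 with less and 43 with more 18S. The 1354 fallen became 456 under totals, 2210 with the 18S factor, 2283 with less 18S, 252 with more, and 2322 without the deepest 2. Of the partner lists, 17 risen became 39 (totals), 32 (less 18S), 0 (more) and 10 (without the deepest 2), and 8 fallen became 1 under totals, 5 without the variance trend, 16 with the 18S factor, 17 with less 18S, 0 with more and 17 without the deepest 2. Leaving out 1 library gave 0 to 8 risen and 0 to 10 fallen phosphatase genes, 0 to 2455 risen and 0 to 1526 fallen genes in all, and 0 to 17 risen and 0 to 12 fallen partner genes, each 0 without SKO 3. The risen share of all calls was 60.1% (TMM), 91.5% (totals), 49.2% (median ratios) and 67.4% (upper quartiles). The cause of these shifts was not tested. The libraries share only replicate numbers: same-number correlations of deviations were 0.67, 0.012, 0.082 and 0.23. With the replicate block, 3863 genes and 16 phosphatase genes were called (6 risen and 10 fallen, over all genes 2162 and 1701, over the partner lists 16 and 11), Ppp1r1b no longer passed (limma adjusted p = 0.0681), and Ppp2r1b, Ppp1r1c and Ppp1r13l did (limma adjusted p = 0.0363, 0.0199 and 0.0363). Each group of 4 limits the precision, and 5 phosphatase genes had under 100 reads in a library.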
